A study of Mus musculus with 4 samples.

Results

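At 506 places in the genome of newborn mouse epidermis, the transcription factor p63 gave a peak in both genotypes studied, p63 alphaKO and wild type (WT), but a relatively weaker one in alphaKO. All 506 lay away from gene ends. The site with the lowest ratio, downstream of the transcription factor gene Ets2, had a peak height of 25 in alphaKO and 139 in WT, and the next were nearest to Fosl2, Hes1 and Jun, which also encode transcription factors, though a wider list of epidermal transcription factor genes, below, had a share near that of all distal pairs. The sites were more often accompanied by other WT peaks, including peaks with no alphaKO partner, than other shared distal sites were.

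To find them, each WT peak was paired with the alphaKO peak that overlapped it by the most bases. Pileup is the coverage by sequenced fragments that the authors' peak caller gave at a peak's highest point, its summit, and its scaling was not stated. The log2 ratio of alphaKO to WT pileup was centred on its median over all pairs. A site was kept when this centred ratio was at most -1 and its WT summit was more than 1 kb from every end of a protein-coding gene. Of 10616 WT peaks, 7066 had a partner among 14593 alphaKO peaks, and 6262 of these pairs were distal. The 506 sites were 8.08% of the distal pairs (95% Wilson interval 7.43 to 8.78), and 726 distal pairs (11.6%) had a centred ratio of at least 1. Intervals given here cover counting error only, and neighbouring sites are not independent.

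The study performed chromatin immunoprecipitation followed by sequencing with a p63 antibody (EPR570) on cross-linked cells of the dorsal-skin epidermis of mice at postnatal day 0. The groups were a p63 alphaKO and a wild-type antibody library, 1 of each. An input library of each genotype was not analysed here. Tissue, age and antibody were the same for both genotypes, while the alphaKO allele, the strain, the sex and the number of animals were not given in the sources used here. Each genotype is a single library, so differences between them were not tested, and peak positions do not check the genotype label. Since whole epidermis was used, fewer cells with p63 on a site and less p63 per cell cannot be told apart.

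p63 is the p53-family transcription factor that stratified epithelia need to form and to renew, and in skin it is found mainly in the nuclei of basal keratinocytes and hair follicle progenitors. Its alpha isoforms differ from the beta and gamma isoforms in a longer C-terminal end, while all share the DNA-binding domain. It binds as a tetramer to a repeated motif with a C-N-N-G core, mostly at distal enhancers, where AP-1 (Jun and Fos family) and other keratinocyte factors also bind.

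The sequences beneath the sites could be read only where a site met an annotated start. At 9 of the 490 sites compared with starts, the WT summit lay in a RefSeq start window (250 bases before a start to 50 after it, build GRCm38.p6), always the start of a noncoding RNA or an internal start of a protein-coding gene. Shown are the 250 bases before the start for the 3 of these sites with the lowest centred ratios. They are printed 5′ to 3′ on the strand of the transcript, with matches in either orientation to the p63 core (CNNG and, after 6 free bases, a second CNNG) or to TGANTCA (the AP-1 motif) in capitals and overlapping matches run together. The first is chr7:130645958-130646207, minus strand, at a long noncoding RNA inside Tacc2. The next is chr19:46304487-46304736, plus strand, at a start of Nfkb2, which encodes an NF-kB precursor. The last is chr19:5567774-5568023, plus strand, at Ap5b1, which encodes a subunit of the AP-5 trafficking complex.
Gm39098: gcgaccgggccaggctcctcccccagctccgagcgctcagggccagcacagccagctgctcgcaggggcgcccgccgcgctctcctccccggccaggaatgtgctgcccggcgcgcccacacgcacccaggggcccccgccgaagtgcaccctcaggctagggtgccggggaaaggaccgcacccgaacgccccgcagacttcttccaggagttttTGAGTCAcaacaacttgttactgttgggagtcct
Nfkb2: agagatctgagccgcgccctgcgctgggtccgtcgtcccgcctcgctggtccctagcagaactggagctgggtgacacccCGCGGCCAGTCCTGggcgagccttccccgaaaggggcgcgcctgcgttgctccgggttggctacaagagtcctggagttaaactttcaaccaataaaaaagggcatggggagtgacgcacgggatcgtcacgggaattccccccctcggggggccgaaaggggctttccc
Ap5b1: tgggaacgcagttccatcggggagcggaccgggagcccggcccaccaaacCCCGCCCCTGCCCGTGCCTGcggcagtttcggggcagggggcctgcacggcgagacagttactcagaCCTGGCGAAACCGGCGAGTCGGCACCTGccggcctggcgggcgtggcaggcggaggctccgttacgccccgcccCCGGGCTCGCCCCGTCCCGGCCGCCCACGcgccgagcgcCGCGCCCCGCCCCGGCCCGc

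The Gm39098 site had a pileup of 38 in alphaKO and 96 in WT, with the WT summit 131 bases before the start. It was the only window of the 9 with TGANTCA, which was in 11 of 73 windows holding the summit of another shared distal site (15.1%) and in 7.81% of all 32851 windows. The Nfkb2 site had 50 in alphaKO and 113 in WT, with the WT summit 8 bases before the start and the alphaKO summit 348 bases from the WT one. At Ap5b1 the pileup was 287 in alphaKO and 559 in WT, with the summit 122 bases before the start. The p63 core was in 8 of the 9 windows, in 95.9% of the 73 and in 70.2% of all windows. The stricter form, with CATG in both places, was in 0 of 9, in 3 of 73 and in 0.712% of all, so these windows say little about motif content.

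A microRNA gene lay under another of the strongest differences. The WT peak at chr12:112130178-112131148 covered the hairpin of Mir203, its summit 0.186 kb before it, and the paired alphaKO peak ended short of the hairpin. miR-203 is abundant in suprabasal epidermis, where it is known to repress p63 itself. A second site lay 4.83 kb from Mir205, whose product is abundant in basal and progenitor keratinocytes. Their main mature products, from RefSeq, are printed with the seed (bases 2 to 8) in capitals, and the seeds differ.
mmu-miR-203-3p: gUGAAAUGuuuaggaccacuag
mmu-miR-205-5p: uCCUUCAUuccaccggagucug

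At the Mir203 site, 3.12 kb outside the protein-coding gene Aspg, the pileup was 46 in alphaKO and 207 in WT and the centred log2 ratio was -2.66. The Mir205 site had 35 in alphaKO and 60 in WT, with a centred log2 ratio of -1.27. Within 10 kb of any hairpin were 15 of 490 sites (3.06%, 1.86 to 4.99) and 64 of 5562 other shared distal sites (1.15%, 0.902 to 1.47). They included a site 7.48 kb from Mir125a and 7.92 kb from Mirlet7e, with 29 in alphaKO and 95 in WT. Another, with 150 in alphaKO and 253 in WT, lay 8.78 to 9.08 kb from the Mir23a, Mir27a and Mir24-2 cluster. The hairpin comparison was not among the planned results and counts the Mir203 site, itself among the lowest ratios, so it is no independent evidence. The 15 also include neighbouring sites in Gse1 near the same hairpin, Mir7687. A hairpin within 10 kb of a peak is a statement of position and does not say that the microRNA is affected.

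Across all 7066 pairs the median alphaKO pileup was 1.40 times the WT pileup (a log2 ratio of 0.49), and 74.7% of pairs were higher in alphaKO. The limit of -1 therefore corresponded to an alphaKO pileup of 0.702 times the WT pileup, and the 506 sites were lower in alphaKO without centring as well as with it. Their median alphaKO to WT ratio was 0.560, with a range of 0.180 to 0.702. Only 170 of them (2.71% of distal pairs) had an uncentred log2 ratio of -1 or lower. The sites were chosen by these pileups, which therefore support nothing beyond the choice.

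**Figure D1:**
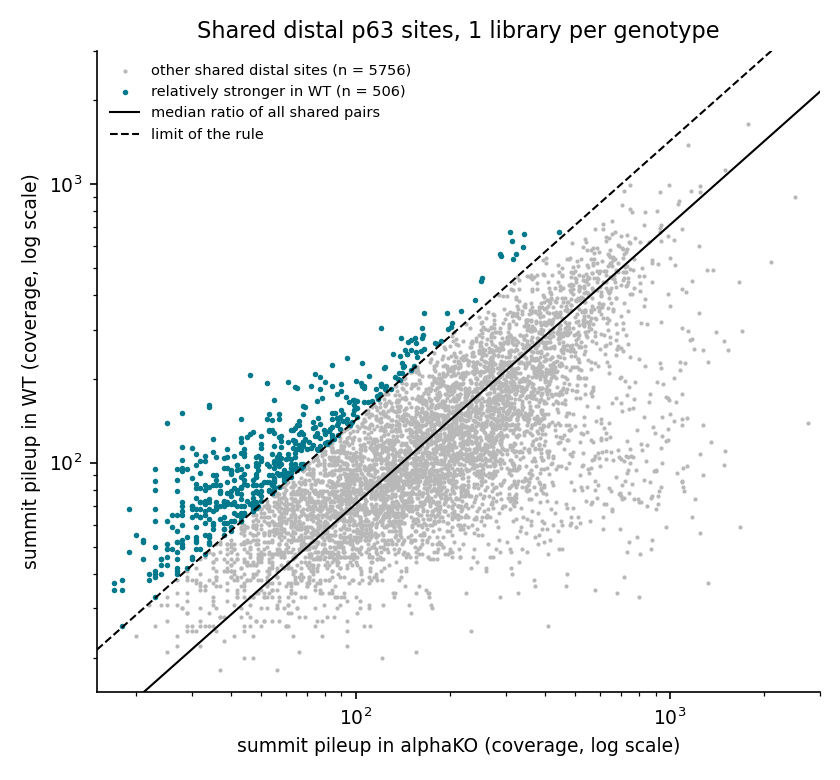
Summit pileup in alphaKO (x axis) and WT (y axis), both as coverage on log scales, for each shared distal site, with 18 pairs outside the axes. The 506 sites lie on or above the dashed limit, which stands parallel to the solid line of the median ratio, and most have an alphaKO pileup under 100.

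The scatter of pileups shows where the sites sat in each list. Their median pileup was 51.5 in alphaKO and 98 in WT, against 180.5 in alphaKO and 103 in WT at the other 5756 shared distal sites. They were thus mid-list WT peaks, at the median percentile 64.0 of the WT list, whose partners stood near the bottom of the alphaKO list, at the median percentile 13.9. By the mean pileup of both genotypes, they made up 21.5% of the lowest of 5 equal classes of distal sites and 1.36% of the highest. Centred ratios lay between -1 and -1.5 at 343 sites, between -1.5 and -2 at 127 and at or below -2 at 36.

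Just inside the limit were sites at Vmn1r77 with 33 in alphaKO and 47 in WT, at Gltp with 40 in alphaKO and 57 in WT, and at Phip with 47 in alphaKO and 67 in WT. Just outside it were sites at Mast4 with 92 in alphaKO and 131 in WT, at Slain2 with 151 in alphaKO and 215 in WT, and at Stmn2 with 149 in alphaKO and 212 in WT. The values on either side of the limit run into each other, so it marks no break between kinds of site.

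The caller also gave a fold enrichment, the pileup over its local background. By that measure 424 of the 506 sites (83.8%) were lower in alphaKO and 82 were higher, while 9.56% of the other shared distal sites were lower in alphaKO. The median fold was 7.02 in alphaKO and 9.66 in WT at the sites, and 23.6 in alphaKO and 12.0 in WT at the others. Fold and pileup come from the same peaks and are not independent. Several sites named in this text by pileup were higher in alphaKO by fold. Among these were sites at Pkp1, Socs3, Plec, Ppl, Dusp6 and Gadd45b, the site upstream of Fos and the weaker Bmp7 site. So were the site near Mir23a, the Ets2 site with 39 in alphaKO and the Opa1 sites with 34 and 77 in alphaKO. The summits of paired peaks were a median of 21 bases apart at the sites and 7 at the others, and within 100 bases in 84.8% and 96.6% of pairs, so at 77 sites the paired summits were further apart than that. Some of the 77 are named below, with gaps of 274 bases at Wnt9b and 237 at Nfkbiz. The gap was 407 at the Hes1 site with 108 in WT and 261 at the Opa1 site with 52 in WT.

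Each site takes the name of the protein-coding gene that holds its WT summit or, failing that, of the nearest one. This is a label of position, since distal sites can act on genes further off. The sites with the 10 lowest centred ratios follow. Downstream of Ets2, a member of the ETS family, a site 7.97 kb from the gene (chr16:95728833-95729332) had a pileup of 25 in alphaKO and 139 in WT. Its fold was 2.97 in alphaKO and 10.8 in WT, and its centred log2 ratio was -2.96.

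Downstream of Fosl2, which encodes an AP-1 subunit, a site 25.6 kb from the gene (chr5:32182984-32183631) had a pileup of 28 in alphaKO and 151 in WT. Its fold was 3.14 in alphaKO and 12.8 in WT. The site 2.75 kb from Hes1 (chr16:30069640-30070812), which encodes a repressor induced by Notch, had a pileup of 34 in alphaKO and 161 in WT, with a fold of 4.80 in alphaKO and 13.8 in WT. Jun, the AP-1 subunit itself, was the nearest gene to a site 109 kb upstream (chr4:95161146-95161713) with 34 in alphaKO and 158 in WT. These sites, like the one at Ets2, had a centred log2 ratio below -2.7, and the alphaKO peak at each was still called, at 2.97 to 4.80 times its background.

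The remaining places among the 10 lowest ratios went to Aspg, given above with Mir203, and to genes of several kinds. Inside Wnt9b, a Wnt ligand gene, the pileup was 28 in alphaKO and 114 in WT. The site 2.88 kb upstream of Zfp36, which encodes a protein that speeds the decay of inflammatory mRNAs, had 30 in alphaKO and 113 in WT, but its paired summits lay 1013 bases apart, so the 2 peaks overlap without sharing a summit. The site nearest Ptpn1, a tyrosine phosphatase gene, was 114 kb away, with 23 in alphaKO and 95 in WT. The other two were nearest to Rpl11, a ribosomal protein gene 28.5 kb off with 23 in alphaKO and 86 in WT, and Sptbn1, a spectrin gene with 52 in alphaKO and 193 in WT. Every alphaKO value of these 10 was 52 or lower, below every WT value, of which the lowest was 86.

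**Figure D2:**
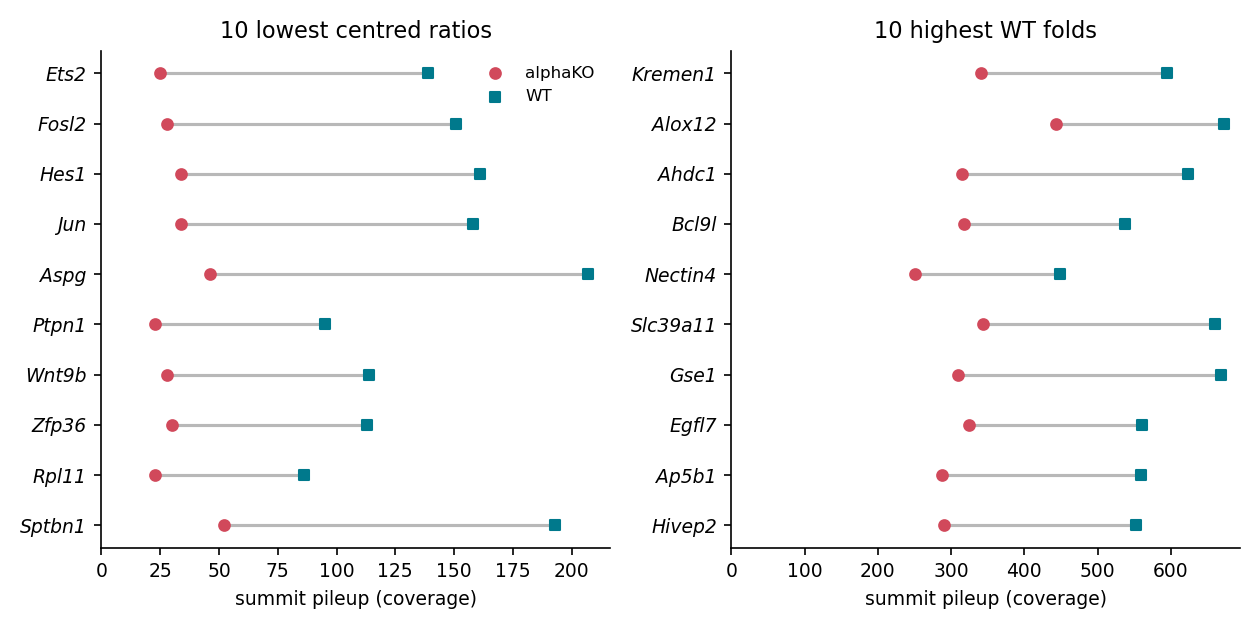
Summit pileup (x axis, coverage) in alphaKO (circles) and WT (squares) at the 10 sites with the lowest centred ratio and the 10 with the highest WT fold, 1 library each, named by containing or nearest gene. On the left the alphaKO values run from 23 to 52 and the WT values from 86 to 207; on the right the alphaKO values run from 251 to 443 and the WT values from 449 to 673.

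A different set of genes stood beside the 10 sites most enriched in WT, shown on the right of the plot of named sites. There p63 remained strongly enriched in alphaKO, with folds of 22.2 to 74.8, against 44.6 to 71.5 in WT. The highest WT fold was beside Kremen1, which encodes a receptor for the Wnt inhibitor Dickkopf, where the pileup was 341 in alphaKO and 595 in WT and the fold was 37.0 in alphaKO and 71.5 in WT. Upstream of Alox12, a lipoxygenase gene, the pileup was 443 in alphaKO and 673 in WT, but the fold was 74.8 in alphaKO and 68.5 in WT, so the direction there depended on the measure. Bcl9l, a coactivator of beta-catenin, held a site with 317 in alphaKO and 538 in WT.

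Nectin4, which encodes a cell adhesion molecule, held a site with 251 in alphaKO and 449 in WT. The site inside Gse1 had the lowest centred ratio of the 10, -1.60, with 309 in alphaKO and 669 in WT. Slc39a11, a zinc transporter gene, had 343 in alphaKO and 660 in WT. Near Ahdc1 the pileup was 315 in alphaKO and 623 in WT, near Egfl7, which encodes a secreted vascular factor, it was 324 in alphaKO and 560 in WT, and inside Hivep2, a zinc finger gene, it was 290 in alphaKO and 553 in WT. None of the 10 is a keratin or integrin gene.

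Gene lists were counted by the same naming, and each count is to be read against the 8.08% of distal pairs that the 506 sites make up and against the median centred log2 ratio of all distal pairs, 0.04. A list of 62 genes known to respond early to growth factors or stress had 32 of the sites among 130 distal pairs (24.6%, 18.0 to 32.7). Its median centred ratio was -0.44, and 3 of its pairs (2.31%) stood at 1 or above. This list was put together after the lowest ratios above had been seen, so its count describes these libraries and is no independent evidence. Of its 46 genes with a distal pair, 23 had a site.

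AP-1 genes made up part of that list. Beside the Jun and Fosl2 sites above, Jund had a pileup of 53 in alphaKO and 131 in WT, Junb had 50 in alphaKO and 101 in WT, and Fos had a site on either side of the gene, with 57 in alphaKO and 102 in WT upstream and 43 in alphaKO and 74 in WT downstream. Genes for Krüppel-like factors, zinc finger regulators of growth and differentiation, followed. Klf10 had 28 in alphaKO and 102 in WT, Klf4 had 55 in alphaKO and 96 in WT, Klf9 had 23 in alphaKO and 62 in WT, and Klf6 had 35 in alphaKO and 61 in WT. Myc, the growth regulator, had its site 93.1 kb away, with 64 in alphaKO and 133 in WT.

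Genes of signalling and stress responses were on the list too. Nfkbiz, an NF-kB cofactor, had 31 in alphaKO and 107 in WT inside the gene. Socs3, which encodes an inhibitor of cytokine signalling, had 153 in alphaKO and 223 in WT, but its fold was 17.9 in alphaKO and 12.3 in WT. For Ier5, a stress-induced regulator, the pileup was 105 in alphaKO and 227 in WT. Sgk1, a kinase induced by serum and glucocorticoids, had the highest WT pileup on the list, 240 in alphaKO and 383 in WT.

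p53 target genes, which p63 can also bind, had 6 of the sites among 18 distal pairs (33.3%, 16.3 to 56.3), with a median centred ratio of -0.20 and 2 pairs at 1 or above. Cdkn1a, which encodes the cell cycle inhibitor p21, had 2 of them: 157 in alphaKO and 240 in WT at 11.9 kb upstream, and 101 in alphaKO and 157 in WT inside the gene. Phlda3, an inhibitor of Akt, had 84 in alphaKO and 143 in WT. Perp, a desmosome component that p63 is known to activate, had 57 in alphaKO and 98 in WT, and Gadd45b, a stress response gene, had 41 in alphaKO and 71 in WT. The sites at Cdkn1a and Gadd45b are also in the early response count, and the Perp site is also in the desmosome and junction count below, so these lists share sites. With 18 pairs the interval is wide, and a share of 16.3% lies within it.

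Genes of hair follicle and ectodysplasin signalling had 11 of the sites among 66 distal pairs (16.7%, 9.57 to 27.4), with a median of -0.30. Wnt ligand genes were among them: Wnt4 had 35 in alphaKO and 90 in WT, Wnt10a had 21 in alphaKO and 53 in WT, and Wnt7b had 32 in alphaKO and 64 in WT. The paired summits at Wnt10a lay 500 bases apart, and its folds were low, at 3.39 in alphaKO and 4.97 in WT. Bmp7, a BMP ligand gene, had a strong site with 196 in alphaKO and 302 in WT and a weak one with 27 in alphaKO and 65 in WT. Tcf7l1, a repressor of Wnt targets in follicle stem cells, had 33 in alphaKO and 83 in WT. Dlx2, a homeobox gene, had 187 in alphaKO and 272 in WT, and sites at the hedgehog genes Gli3 and Ptch1 and at the TGF-beta receptor gene Tgfbr2 lay between -1.04 and -1.67.

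Epidermal transcription factor genes had 13 of the sites among 130 distal pairs (10.0%, 5.94 to 16.4), an interval that holds the share over all distal pairs, and 2 pairs at 1 or above. Its most enriched sites in WT, after Jun, were Bcl11b, a zinc finger gene of epidermal development, with 80 in alphaKO and 118 in WT, and Hes1, above. Runx2, a Runt-domain gene, had 40 in alphaKO and 71 in WT, Sox9, needed by follicle stem cells, had 45 in alphaKO and 73 in WT at 218 kb, and Nfib had 32 in alphaKO and 72 in WT. Maf, which promotes keratinocyte differentiation, had 42 in alphaKO and 98 in WT at 390 kb from the gene, the furthest of the list.

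Adhesion genes had smaller counts. Desmosome and junction genes had 6 of 45 distal pairs (13.3%, 6.26 to 26.2), among them Nectin4, above, Pkp1, a plaque protein gene with 182 in alphaKO and 266 in WT, and Cdh1, the gene of E-cadherin, with 54 in alphaKO and 78 in WT. Actin and adhesion signalling genes had 6 of 43 (14.0%, 6.56 to 27.3), with Pxn, the paxillin gene, at 140 in alphaKO and 209 in WT, Msn, the moesin gene, at 58 in alphaKO and 91 in WT, and Ezr, the ezrin gene, at 97 in alphaKO and 140 in WT. Basal layer and anchoring genes had 3 of 43 (6.98%, 2.40 to 18.6), with Col17a1, a hemidesmosomal collagen gene, at 125 in alphaKO and 189 in WT and Plec, the plectin gene, at 41 in alphaKO and 72 in WT. All these intervals hold the 8.08% of all distal pairs. By fold the direction reversed at Pkp1 (26.9 in alphaKO and 17.2 in WT) and Plec (5.72 in alphaKO and 4.54 in WT). It did not at the other adhesion sites named here.

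Hippo pathway genes had 3 of 20, of which Amotl2, which encodes a YAP-binding protein, had 28 in alphaKO and 93 in WT, Wwtr1, the gene of the coactivator TAZ, had 45 in alphaKO and 97 in WT, and Tead1, their DNA-binding partner, had 43 in alphaKO and 89 in WT. Chromatin regulator genes had 3 of 15, among them a site inside the demethylase gene Kdm6b with 109 in alphaKO and 165 in WT. Growth factor and MAPK genes had 2 of 55 (3.64%, 1.00 to 12.3) and 4 pairs at 1 or above, the Fgfr2 site having 75 in alphaKO and 112 in WT and the Dusp6 site 23 in alphaKO and 33 in WT. Counts this small do not separate these lists from all distal pairs.

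Notch pathway genes had 0 of 27 (a count of 0, taken as at most 3, allows a share of up to 11.1%, and the Wilson interval reaches 12.5%), though Hes1, a Notch target with 3 of the sites, was counted under transcription factors, and barrier lipid genes had 0 of 6. Suprabasal and cornified envelope genes had 1 of 12, at Ppl, the periplakin gene, with 56 in alphaKO and 92 in WT. Keratins other than those of the basal list had 1 of 6, at Krt80, with 23 in alphaKO and 68 in WT. Markers of melanocytes, immune cells, dermal fibroblasts, endothelium and Merkel cells had 1 to 5 distal pairs each and 0 of the sites. By fold in place of pileup, the transcription factor list had 22 pairs at or below -1 (16.9%), the desmosome and junction list 10 (22.2%) and the Notch list 2, against 8.61% of all distal pairs. Counting every distal pair inside or within 50 kb of a listed gene, whatever the nearest gene, gave the Notch list 2 of 26. With the median taken within 10 classes of mean pileup the actin list had 3, so these counts depended on the measure.

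**Figure D3:**
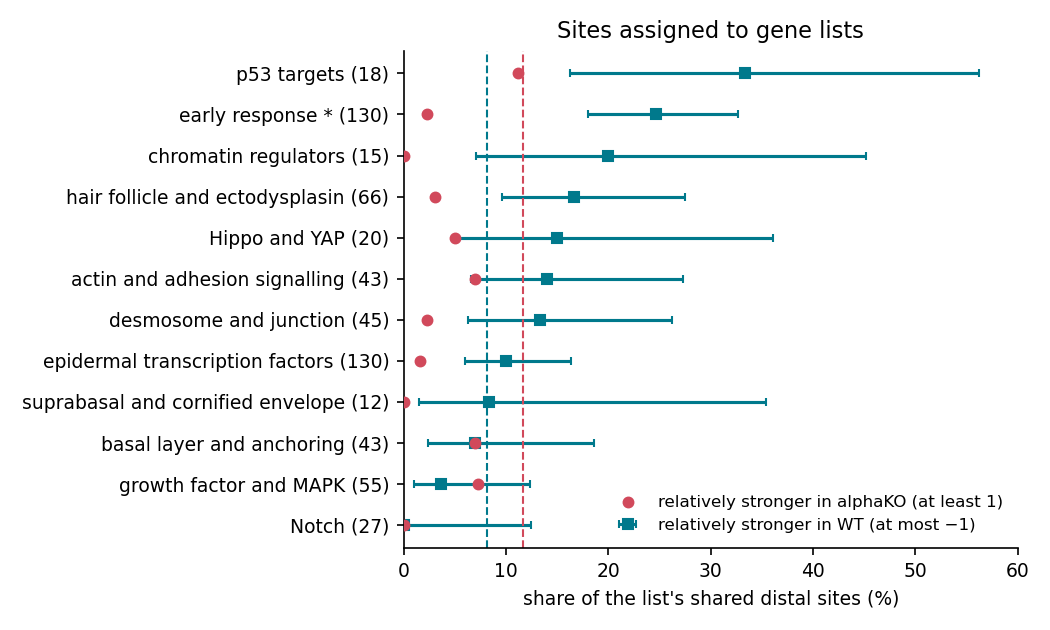
Share of each list's shared distal sites (x axis, %) with a centred ratio of at least 1 (circles) and at most -1 (squares, with 95% Wilson intervals), for lists with at least 10 distal sites, the number in brackets. Dashed lines give the shares over all distal sites, 11.6% and 8.08%; the early response list, marked with an asterisk, was put together after the values were seen.

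The plot of lists shows early response genes, p53 targets and hair follicle genes with intervals that begin above 8.08%, and the other intervals reaching down to it or below. That holds for the pileup ratio, since the counts by fold above order the lists differently. All lists were chosen with earlier results of these data known. The early response and p53 lists also share sites, so none of these shares is independent evidence. Circles for pairs at 1 or above lie left of their dashed line for every list drawn.

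The sites were spread over 448 genes, of which 399 had 1, 40 had 2 and 9 had 3. The 9 were Cxadr, Ets2, Gse1, Hes1, Irf2bp2, Ncam1, Opa1, Slc39a11 and Vmn1r77. At Irf2bp2, which encodes a transcriptional corepressor, 3 of 10 distal pairs were among the sites, with 77 in alphaKO and 203 in WT, 44 in alphaKO and 91 in WT, and 55 in alphaKO and 87 in WT, all within 20.6 kb. At Ets2 they were 3 of 7, the others having 62 in alphaKO and 103 in WT and 39 in alphaKO and 85 in WT. Ncam1, a neural adhesion gene, had 57 in alphaKO and 143 in WT at the lowest of its 3 of 5. The 3 sites beside Vmn1r77, a vomeronasal receptor gene, differed in kind, with low folds of 2.54 to 4.10 in alphaKO and 3.82 to 5.25 in WT.

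Hes1 and Opa1, a mitochondrial fusion gene, are neighbours, and their sites lie in 1 stretch. Hes1 was named here for its low ratios, so counts around it are no independent evidence. The 506 are 8.08% of all distal pairs, and centring puts the median of all pairs at 0. Within 400 kb of Hes1 lay 13 shared sites, of which 6 were among the 506 and 12 had a centred ratio below 0. Beside the site above, they had 43 in alphaKO and 144 in WT at -56.3 kb from the lower-coordinate boundary of the gene, 43 in alphaKO and 108 in WT at -119 kb, 34 in alphaKO and 52 in WT at -249 kb, 32 in alphaKO and 101 in WT at -251 kb, and 77 in alphaKO and 123 in WT at -289 kb. Low and higher sites stood side by side: next to the site at -119 kb, at -123 kb, was a site with 301 in alphaKO and 193 in WT, a centred ratio of 0.15. The window also held 7 alphaKO peaks with no WT partner and 7 WT peaks with no alphaKO partner, so unpaired peaks of both genotypes were present.

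**Figure D4:**
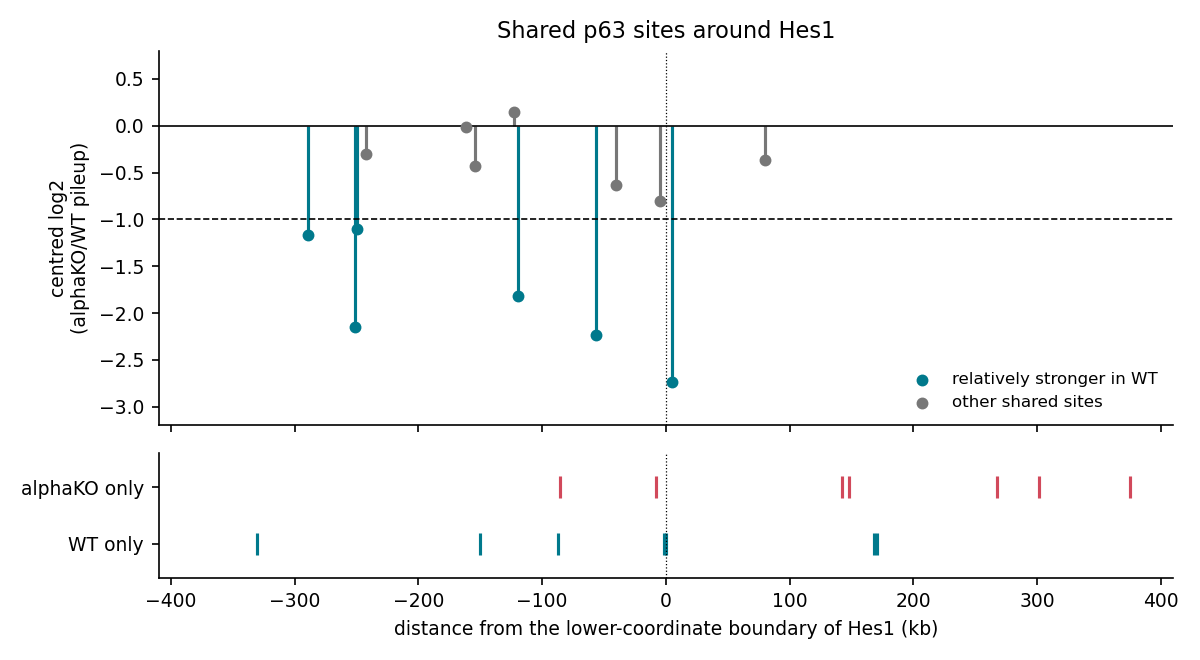
Centred log2 ratio of alphaKO to WT pileup (y axis) of the 13 shared sites by distance of the WT summit from the lower-coordinate boundary of Hes1 (x axis, kb), above, and positions of peaks called in 1 genotype alone, below. The 6 sites at or under the dashed limit of -1 stand among others, of which only 1 is above 0.

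In 10 places, 3 of the sites followed each other at gaps of at most 100 kb. At Cxadr, Ncam1 and Opa1, and around Ube2g2 and Tspear, every distal pair between the outermost sites was among the 506. The sites themselves set these spans. Counted by gene name, 3 of 5 distal pairs at Cxadr, 3 of 5 at Ncam1 and 3 of 4 at Opa1 were among the 506. In all, 81 of the 506 (16.0%) had another of them within 50 kb, while 8.04% of the other shared distal sites had 1 of the 506 that near. Taking all shared pairs within 50 kb, their median centred ratio was -0.25 around the sites (n = 346 with such a neighbour) and -0.06 around the other shared distal sites (n = 3153). The neighbours were measured in the same libraries.

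Other peaks crowded around the sites. Another WT peak lay within 10 kb of 244 of the 506 (48.2%, 43.9 to 52.6), against 30.1% (29.0 to 31.3) of the other shared distal sites. A WT peak with no alphaKO partner lay within 50 kb of 50.8% (46.4 to 55.1), against 35.6% (34.3 to 36.8). For alphaKO peaks with no WT partner the shares were 43.9% (39.6 to 48.2) and 45.9% (44.7 to 47.2), whose intervals overlap. Over 5 bins of the centred ratio from the lowest to the highest, the share with an unpaired WT peak nearby was 50.8%, 48.1%, 36.8%, 28.6% and 23.0%, so the sites are the end of a gradient and not a class apart. Among sites with a WT pileup within the quartiles of the 506 (72 to 139, a comparison chosen after seeing the data), another WT peak lay within 10 kb of 46.2%, against 28.0% of the others.

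**Figure D5:**
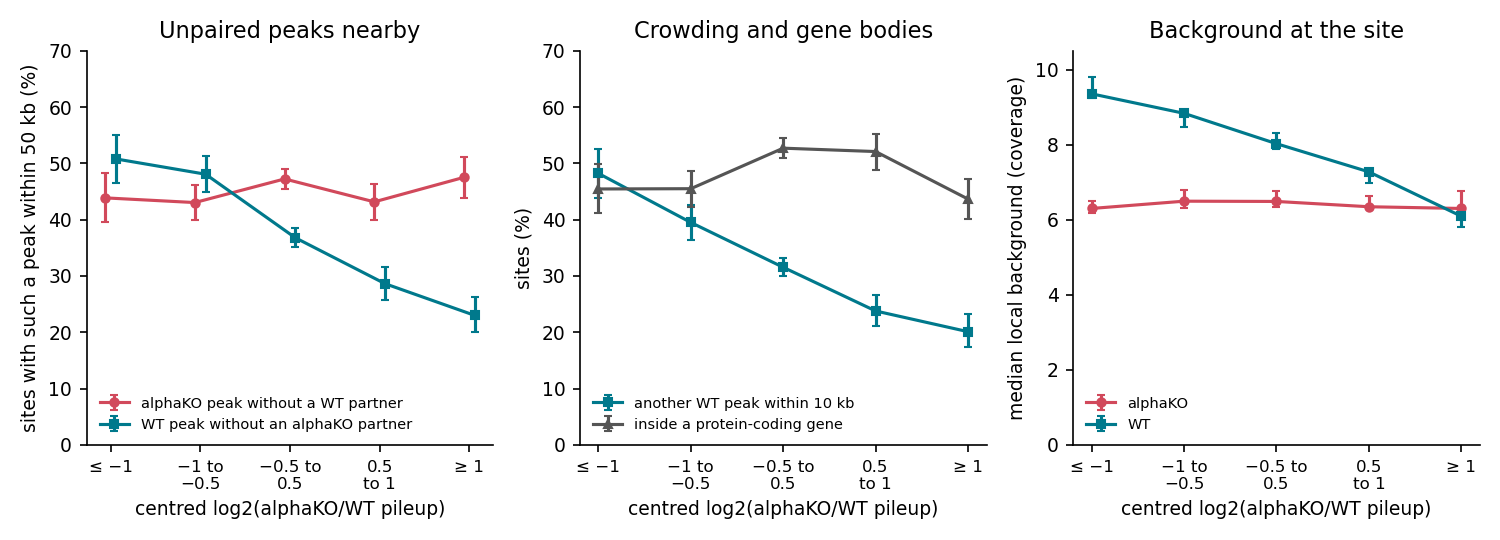
Shares of shared distal sites (y axes, %, with 95% Wilson intervals) with an unpaired alphaKO or WT peak within 50 kb, left, with another WT peak within 10 kb or inside a protein-coding gene, middle, and median local background in coverage with its 95% interval, right, by bins of the centred ratio (x axes). The WT curves run down from the sites at most -1 to those at least 1, while the alphaKO curves stay level.

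The WT background moved along the same axis, as the right panel of the plot by bins shows. The caller's local background, recovered from pileup and fold, had a median of 6.30 in alphaKO and 9.35 in WT at the 506 sites, and of 6.49 in alphaKO and 7.79 in WT at the other shared distal sites. In 5 equal classes of WT background, the sites were 2.47%, 4.55%, 7.67%, 10.9% and 14.8% of distal pairs from the lowest class to the highest. Its part in the pileup ratio and in the crowding was not tested. WT peaks were the wider of the pair at 410 of the sites (81.0%), against 26.4% of the other shared distal sites. Median widths were 366 bases in alphaKO and 449.5 in WT at the sites, and 459 in alphaKO and 389 in WT at the others. Width and pileup come from the same peaks, so the widths are not independent of the choice of sites.

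By position the sites lay nearer to gene ends than other distal sites, and resembled them in side of the gene and share on X. Of the 506, 230 (45.5%, 41.2 to 49.8) had the WT summit inside a protein-coding gene, against 50.3% (49.0 to 51.6) of the others. These intervals overlap. At sites with a ratio of at least 1 the share was 43.7% (40.1 to 47.3), so a low share was not particular to the 506. Gene ends were a median of 18.4 kb away (15.1 to 20.9), against 23.8 kb (22.4 to 24.9) for the others. Of the 224 sites outside genes whose nearest gene has a known strand, 54.9% (48.4 to 61.3) were upstream of it, against 57.8% (55.7 to 59.9) of the others. Chromosome X held 6 of the sites (1.19%), against 1.23% of the others. Leaving out chromosome Y, which had 1 distal pair and 0 of the sites, their share of distal pairs per chromosome ran from 4.60% on chromosome 14 to 11.7% on chromosome 12.

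Low ratios were more frequent within 1 kb of gene ends, but among distal sites the distance did not rise evenly with the ratio. Over the 5 bins of the centred ratio from the lowest, the median distance to a gene end was 18.4, 24.3, 22.1, 25.4 and 26.3 kb. To a protein-coding start the median was 34.0 kb (29.1 to 41.3) at the sites and 39.4 kb (37.3 to 41.7) at the others. The intervals for starts overlap. Among the 804 shared pairs within 1 kb of a gene end, which the choice left out, 18.4% had a centred ratio of at most -1, against 8.08% of distal pairs and 9.26% of all pairs. The WT peak overlapped an annotated start window at 24 of 490 of the sites (4.90%, 3.31 to 7.18), at 2.70% (2.30 to 3.16) of the other shared distal sites and at 4 of 701 sites with a ratio of at least 1 (0.571%). WT peaks were wider at the sites, and a wider peak can meet a window more easily. The WT summit itself lay in a window at 1.84% of the sites (0.969 to 3.45) and 1.22% of the others (0.966 to 1.55). The intervals for the summit overlap. Of the 24, 13 met a start of a protein-coding gene and 12 that of a long noncoding RNA, 1 site meeting both. Among them were Arid1a, which encodes a chromatin remodelling subunit, with 38 in alphaKO and 73 in WT, and H3f3b, a gene of histone H3.3, with 30 in alphaKO and 70 in WT.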

How the data were processed

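The 2 peak lists, 1 per antibody library, were the authors' own. Reads were aligned with Bowtie2 and peaks called with MACS2 2.1.1.20160309 on mm10, per the submitters' processing notes; the Bowtie2 version, control and options were not given in the sources used here, nor was read depth. Per the file headers, the lists hold positions, pileup (coverage signal at the summit), fold enrichment over local background (a ratio), and −log10 p-values and q-values. The deposited values are whole pileups, and how the caller scaled them was not stated.

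Computed from them here were the pairs (largest overlap, at least 1 base), the centred log2 ratios, background as (pileup + 1)/fold − 1, distances to RefSeq GRCm38.p6 genes and counts. Scripts ran under Python 3.11.15 with pandas 2.3.3, NumPy 2.4.6 and SciPy 1.17.1, figures were drawn in matplotlib 3.10.9, and the pairing was tested on simulated data. With 1 library per genotype no test was made. Shares carry 95% Wilson intervals and medians 95% order-statistic intervals.

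Named are the 10 lowest centred ratios, the 10 highest WT folds, the 3 highest WT folds of each list, genes with 3 sites and the 3 sites on either side of the limit; further sites were named after their values were seen, and some sites that the rule names are not reported here. The sites and lists were chosen with earlier results of these data known. RefSeq symbols matched 294 listed genes and all early response genes but not Trdc. Start windows covered 17491 of 21883 protein-coding genes, and 16 sites on chromosome 18 were not used in counts of starts and hairpins, which leaves 490. Alternatives are given below.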

Additional observations from a re-analysis of the deposited data

How the results depend on the processing

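With 1 library per genotype, library and genotype cannot be told apart, read depth is unknown, and the pileup of weak peaks rests on few fragments. No paired analysis was possible because each genotype had 1 library and the labels carry no replicate numbers. The search for motifs around all summits was not run, since no genome was used, and the share on X has no value without the sex chromosomes.

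The 506 sites became 800 at a limit of -0.8 and 163 at -1.5. Their 8.08% of distal pairs became 12.8% and 2.60% at those limits, 6.44% with 10 added to each pileup, 8.96% with the median over distal pairs, 6.95% with the median within 10 classes of mean pileup, 7.41% with −log10 q of at least 10 in both lists and 9.26% of all pairs with no distance limit. The share inside genes, 45.5%, became 38.0% at -1.5 and 56.9% with all annotated genes. The median distance to a gene end, 18.4 kb, became 26.8 kb beyond 5 kb from gene ends, 11.0 kb with no distance limit and 8.95 kb with all annotated genes. The 48.2% with another WT peak within 10 kb became 52.9% with the median within 10 classes and 54.6% at -1.5. The causes were not tested. In 70 further combinations of result and alternative, the value stayed within the 95% interval of the reported one or, for counts, within 1.5 times. By fold, 539 sites passed, of which 326 were among the 506 (64.4% of the 506 and 60.5% of the 539). With the median within 10 classes 435 passed, of which 333 were among the 506. The early response list had 30 and 29 such pairs under these alternatives.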
